A study of Rattus norvegicus with 3 samples.

Results

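In injured rat spinal cord, 231 of 5326 nuclear barcodes (4.34%) held transcripts of a set of secreted and imprinted genes typical of meningeal fibroblasts. They had a UMI (unique molecular identifier, 1 captured transcript molecule) in at least 4 of the 6 genes Ptgds, Igf2, Igfbp2, Mgp, Nnat and Lbp. They also had a UMI in at most 1 of 4 neuronal genes (Snhg11, Syt1, Snap25, Celf4) and in at most 1 of 4 meningeal transporter genes (Slc6a20, Slc6a13, Slc26a7, Slc47a1). The members numbered 16 of 906 barcodes in the HGF scaffold library, 88 of 2168 in the scaffold library and 127 of 2252 in the untreated library. Because the members were selected on measured counts of the same barcodes, every comparison of members with other barcodes below is a description and carries no test.

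All animals were SDrat (Sprague Dawley) rats labelled WT, 17 weeks old, and all had a spinal cord injury, including the untreated group. The HGF scaffold group had received a scaffold releasing hepatocyte growth factor (HGF), the scaffold group a scaffold alone, and the untreated group no treatment. The lesion epicenter was taken 49 days after injury, 7 days after implantation in the implanted groups. There was 1 library per group, the labels do not give the number of animals in it, and no difference between groups has a replicate check.

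Ptgds encodes lipocalin-type prostaglandin D synthase, a main secreted product of the leptomeninges and also a product of oligodendrocytes. Igf2 is an imprinted growth factor made in the adult brain mainly by meninges and choroid plexus, and Igfbp2 and other IGF-binding proteins set how much of it reaches its receptors. Mgp, matrix Gla protein, inhibits calcification, Nnat is an imprinted gene for a small membrane proteolipid, and Lbp binds bacterial lipopolysaccharide. In isolated nuclei, mitochondrial transcripts come from cytoplasm that was carried along or was free in the suspension. Ribosomal protein messages can come from such cytoplasm or from the nucleus, and the counts per gene do not separate the sources.

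The libraries held 1450757, 5791715 and 5953189 UMIs in the HGF scaffold, scaffold and untreated groups, with median depths of 1047, 1639 and 1407.5 UMIs per barcode. The shallowest barcodes held 501, 500 and 500 UMIs. Pairs of libraries shared 0, 1 or 3 barcode sequences, none of them a member. Scrublet marked 0.0376% of all barcodes as doublets and none of the members, a share too low for the caller to have worked, so doublets were not removed.

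Ptgds was the most abundant of the 6 genes in the members and the one nearly all of them shared. Its summed level was 3845, 4437 and 4656 CPM (UMIs scaled to a total of 1000000) in the members of the HGF scaffold, scaffold and untreated libraries, against 417, 797 and 1134 CPM in all other barcodes. It was detected in 16 of 16, 85 of 88 and 120 of 127 members, and 1 barcode gave 36.5% of the HGF scaffold members' Ptgds UMIs. Igfbp2 stood at 340, 668 and 836 CPM in the members and 47.1, 108 and 150 CPM elsewhere. Igf2 stood at 140, 365 and 540 CPM in the members and 24.3, 44.9 and 96.3 CPM elsewhere, with 7, 89 and 177 member UMIs. Igf2, Igfbp2 and Nnat were thus each lowest in the HGF scaffold members and highest in the untreated members. Nnat had 240, 541 and 595 CPM in the members and 77.8, 71.4 and 130 CPM elsewhere.

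Mgp and Lbp differed less from scar fibroblasts, which are taken here as other barcodes that met the scar fibroblast marker rule alone. Mgp was at 1762, 819 and 1278 CPM in the members of the HGF scaffold, scaffold and untreated libraries and at 1410, 1368 and 1137 CPM in scar fibroblasts. A single barcode held 40.9% of the HGF scaffold members' Mgp UMIs. Lbp was at 561, 541 and 677 CPM in the members and at 742, 707 and 525 CPM in scar fibroblasts. In the scaffold library both genes were therefore higher in scar fibroblasts than in the members. Ptgds in scar fibroblasts was 859, 1793 and 1949 CPM, below the members in every library. All 6 genes were detected together in 1, 5 and 5 members of the HGF scaffold, scaffold and untreated libraries, and the most frequent combination was Ptgds, Igfbp2, Mgp and Lbp, in 25 members over the 3 libraries.

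**Figure D1:**
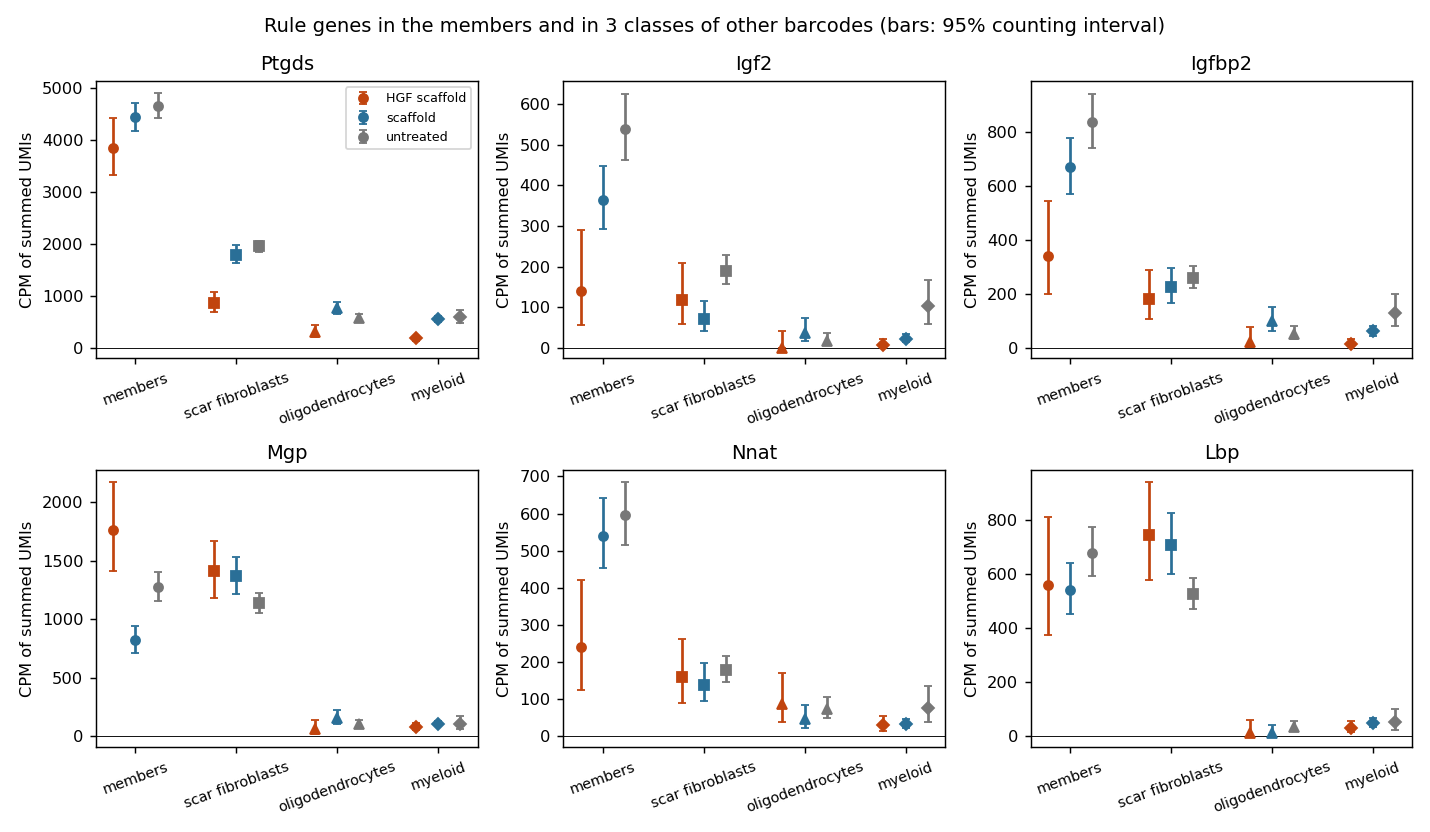
Summed level (CPM, linear axis) of the 6 rule genes in the members and in scar fibroblast, oligodendrocyte and myeloid barcodes of the HGF scaffold (red), scaffold (blue) and untreated (grey) libraries. Bars are exact 95% counting intervals. Ptgds, Igf2, Igfbp2 and Nnat have their highest point in the members in each library, while Mgp and Lbp are as high or higher in scar fibroblasts of the scaffold library.

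Ptgds was also found, at lower levels, in neurons, taken here as other barcodes that met the neuronal marker rule alone. Neurons had a Ptgds UMI in 12.5%, 33.3% and 50% of 8, 24 and 24 barcodes of the HGF scaffold, scaffold and untreated libraries, at median depths of 2460.5, 2708 and 4595.5 UMIs, against 100%, 96.6% and 94.5% of the members at 1312.5, 1445.5 and 1599 UMIs. After each barcode was thinned to 500 UMIs the shares were 72.3%, 67.1% and 66.7% in the members and 2.53%, 8.97% and 6.78% in neurons. The rule counts Ptgds, so a higher share in the members is fixed in part by the selection.

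The members had ordinary depth but a raised share of mitochondrial and ribosomal protein transcripts. Their median depth of 1312.5, 1445.5 and 1599 UMIs compared with 1042, 1649 and 1393 UMIs in all other barcodes of the HGF scaffold, scaffold and untreated libraries, so they were shallower than the rest in the scaffold library and deeper in the others. They held a median of 942.5, 1074.5 and 1112 genes, against 753, 1106 and 934. The mitochondrial share of UMIs had a median of 1.05%, 0.450% and 0.670% in the members and of 0.0964%, 0.131% and 0.0982% in the others. It lay above the others' median in 93.8%, 87.5% and 86.6% of the members. Ribosomal protein genes took a median of 2.94%, 1.86% and 2.27% of UMIs in the members and 0.658%, 0.704% and 0.478% in the others. No member exceeded 5% mitochondrial UMIs, a limit often used in nuclear data, and 4 other barcodes did, all untreated.

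The mitochondrial share of the members was above that of the large cell classes. Scar fibroblasts came nearest among these, with medians of 0.323%, 0.271% and 0.245%, while myeloid barcodes had 0.0854%, 0.0748% and 0% and oligodendrocytes 0%, 0.0726% and 0.0415% in the HGF scaffold, scaffold and untreated libraries. In the scaffold library, 3 Schwann cell and 5 erythroid barcodes had higher medians than the members, at 0.577% and 0.463%. Other barcodes with at least 2 of the 4 meningeal transporter genes, the nuclei most like meninges by those genes, had 0.0788%, 0.130% and 0.124%. Their median depths were 2258, 3282.5 and 2694 UMIs. Those among them with at least 4 rule genes and at most 1 neuronal gene had 0.113%, 0.269% and 0.208%, at 3529, 5411 and 4327 UMIs. Both sets were deeper than the members, whose share was 0.161%, 0.171% and 0.241% at 2500 UMIs and over.

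The mitochondrial share of the members was highest in the shallowest of them. From 500 to below 1000 UMIs, the median mitochondrial share was 1.46%, 0.885% and 1.17% in 6, 33 and 39 members of the HGF scaffold, scaffold and untreated libraries and 0.135%, 0.299% and 0.204% in the other barcodes of that depth. From 1000 to below 2500 UMIs it was 0.977%, 0.454% and 0.693% in 5, 27 and 46 members and 0.0854%, 0.113% and 0.0895% in the others. At 2500 UMIs and over it was 0.161%, 0.171% and 0.241% in 5, 28 and 42 members and 0.0649%, 0.0916% and 0.0378% in the others. The members' mitochondrial medians stood above those of the others in each depth class and library. Their ribosomal protein medians did so too, except in the HGF scaffold library at 2500 UMIs and over, with 0.571% in the members and 0.575% in the others. Within the members, the share of UMIs from the 6 rule genes went with the mitochondrial share across barcodes, with Spearman's rho of 0.53, 0.70 and 0.62 over 16, 88 and 127 barcodes. Both shares also went down with depth, since the rho between UMIs and the rule-gene share was -0.64, -0.78 and -0.62. These barcodes share a library and each share is a fraction of the same UMIs. The rule itself ties a low depth to a high rule-gene share, because 4 detected genes are a larger part of few UMIs.

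**Figure D2:**
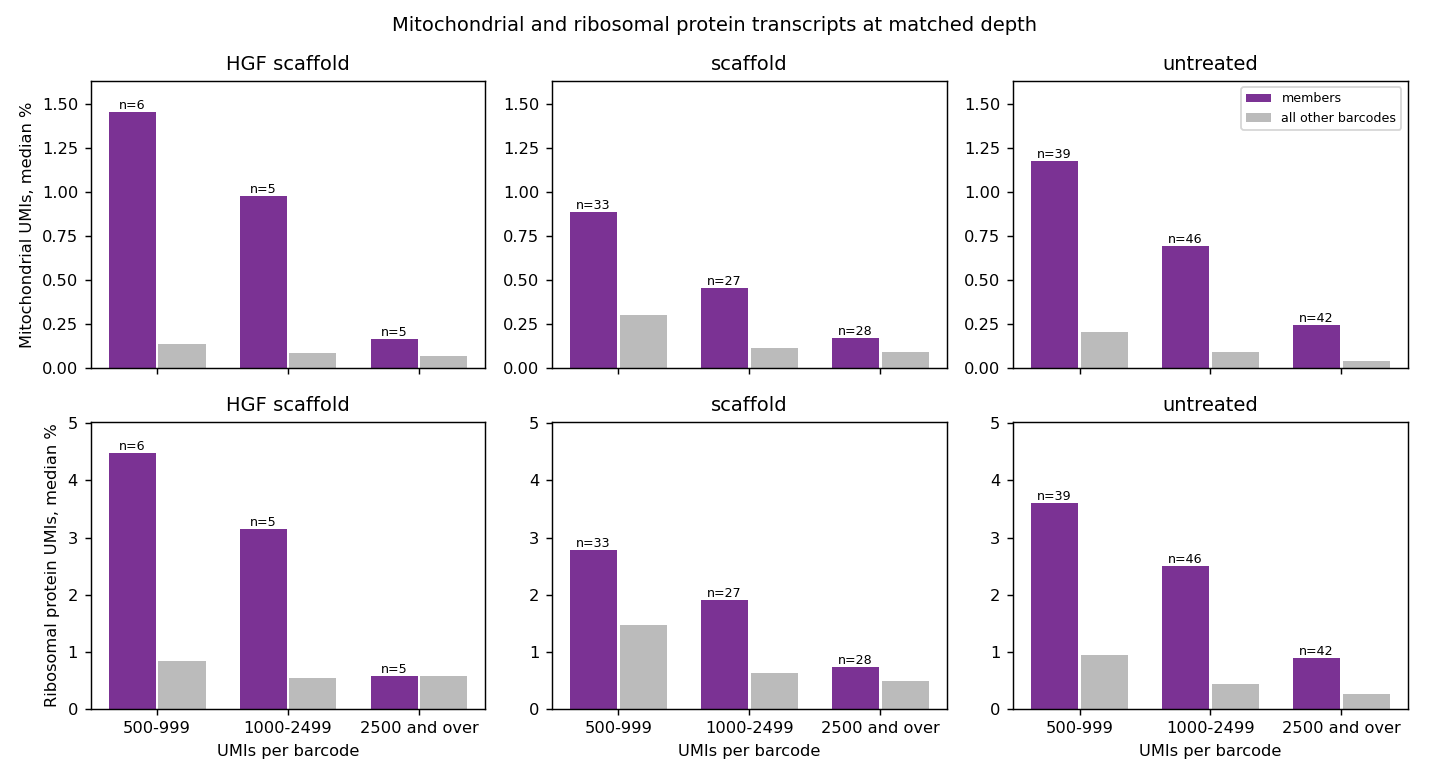
Median share (percent of a barcode's UMIs) of mitochondrial (upper row) and ribosomal protein (lower row) transcripts in 3 depth classes, for members (purple, n above the bar) and all other barcodes (grey) of each library. From 500 to below 1000 UMIs the members' mitochondrial medians of 1.46%, 0.885% and 1.17% exceed those of the others, and at 2500 UMIs and over the bars are closer.

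Many members carried the markers of other cell types as well. A barcode was taken to meet a class rule when it had a UMI in at least 4 marker genes of that class (3 for 4 small classes), with 12 classes tested. Markers of 2 or more classes were met by 50%, 48.9% and 45.7% of the members of the HGF scaffold, scaffold and untreated libraries and by 23.0%, 37.5% and 33.7% of all other barcodes. The scar fibroblast rule, built on collagen genes such as Col1a1 and Col3a1, was met by 68.8%, 62.5% and 77.2% of the members and 26.3%, 34.4% and 44.8% of the others. The astrocyte rule was met by 25%, 17.0% and 18.9% of the members and 3.48%, 10.8% and 11.9% of the others. The oligodendrocyte rule was met by 25%, 36.4% and 33.1% of the members and 19.3%, 29.2% and 30.3% of the others. The myeloid rule was met by 43.8%, 45.5% and 18.9% of the members and 49.7%, 52.6% and 24.6% of the others. No member met the neuronal rule, which the exclusion of neuronal genes largely fixes.

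Members with the markers of several types were deeper than members with few. The 8, 45 and 69 members that met fewer than 2 class rules in the HGF scaffold, scaffold and untreated libraries had median depths of 770.5, 869 and 991 UMIs and mitochondrial medians of 1.46%, 0.770% and 0.904%. The 8, 43 and 58 members that met 2 or more had 3836, 2763 and 3302 UMIs and mitochondrial medians of 0.232%, 0.257% and 0.454%. Among members of 2500 UMIs and over, 100%, 92.9% and 90.5% met 2 or more class rules, against 74.2%, 78.6% and 75% of the other barcodes at that depth. No class rule was met by 3, 18 and 14 members. These were 18.75%, 20.45% and 11.02% of the members, beside 22.02%, 20.82% and 23.01% of all other barcodes. The members' share was thus near that of the others in the HGF scaffold and scaffold libraries and lower in the untreated library. Of the 5, 27 and 55 members that met exactly 1 class rule, 4, 17 and 45 met the scar fibroblast rule. Whether the deep members are doublets, clumps of nuclei or nuclei with adhering RNA was not tested.

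**Figure D3:**
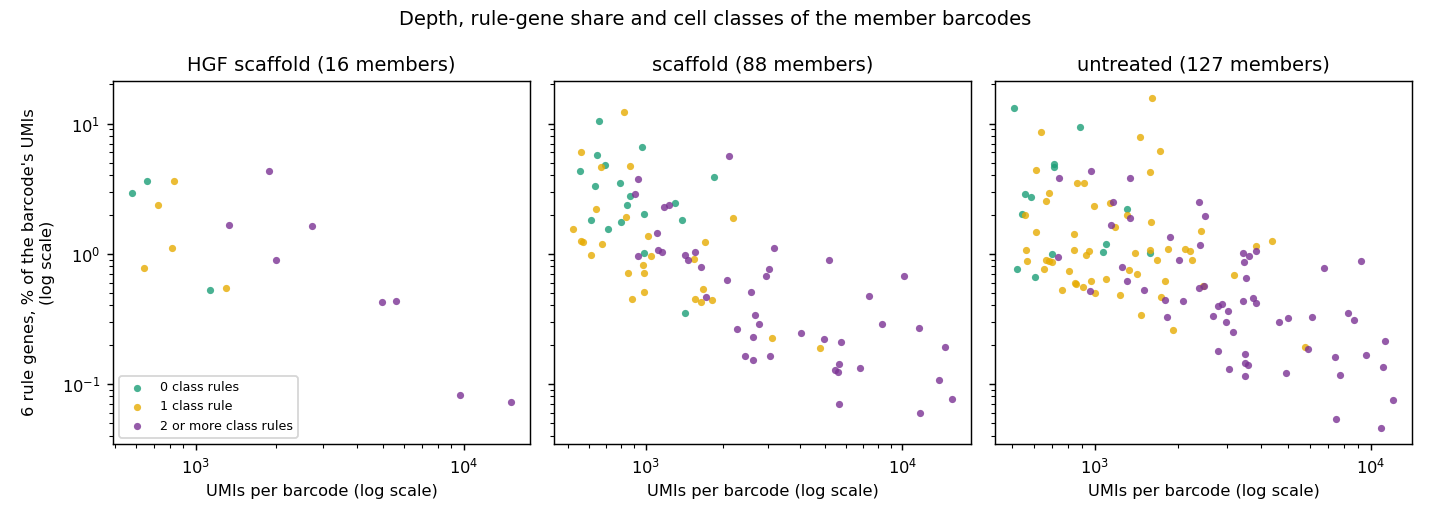
Each point is a member barcode, placed by its UMIs (log scale) and by the percent of its UMIs that come from the 6 rule genes (log scale), and coloured by the number of cell class rules it meets. The rule-gene share declines with depth in each library, and barcodes that meet 2 or more class rules (purple) lie mostly at the deep end.

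The edge of the rule was not sharp. Barcodes just outside it, with 3 of the 6 genes and the same exclusions, numbered 32, 185 and 181 in the HGF scaffold, scaffold and untreated libraries. Their median rule-gene shares were 0.515%, 0.467% and 0.523% and their median mitochondrial shares 0.400%, 0.285% and 0.398%. Members just inside it, with 4 genes, numbered 12, 62 and 83, with mitochondrial medians of 1.09%, 0.446% and 0.459%, and members with 5 or 6 genes numbered 4, 26 and 44, with 0.709%, 0.450% and 1.03%. The exclusion genes removed mainly deep barcodes that had at least 4 rule genes. Neuronal genes took out 0, 41 and 28 such barcodes, with median depths of 9333 UMIs in the scaffold library and 14361 UMIs in the untreated library, and meningeal transporter genes took out 7, 43 and 81, with medians of 3529, 5411 and 4327 UMIs.

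Few genes beyond the rule genes were higher in the members in every library. Of 1365 genes with at least 10 member UMIs in each library, 31 (2.27%) were at least 2-fold higher in the members than in all other barcodes in all 3 libraries. The limit of 10 member UMIs favours genes that are high in the members. These 31 included 5 rule genes, 2 mitochondrial genes and 3 ribosomal protein genes. Clu, the extracellular chaperone clusterin, led the 25 named genes by its lowest ratio, at 501, 762 and 976 CPM in the members of the HGF scaffold, scaffold and untreated libraries, against 123, 198 and 268 CPM in the others. Its ratios were 4.05, 3.84 and 3.64. Islr, a secreted protein of mesenchymal stromal cells, had ratios of 12.9, 4.13 and 3.38 on 12, 26 and 60 member UMIs. Ogn, the small proteoglycan osteoglycin, had 5.79, 3.35 and 3.12, and the protease inhibitor A2m had 5.84, 2.78 and 4.59.

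Of the 6 genes of the IGF list that could be tested, Igfbp2, a rule gene, and Igfbp3, Igfbp5 and Igfbp6 were among the 31, while Igfbp7 and Igf1r were not. Igfbp6, which prefers IGF2 over IGF1, was at 220, 131 and 314 CPM in the members and 47.8, 42.2 and 101 CPM in the others of the HGF scaffold, scaffold and untreated libraries. Igfbp3, the main carrier of IGFs in serum, was at 280, 258 and 323 CPM in the members and 99.2, 76.2 and 115 CPM in the others. Igfbp5 was at 1702, 467 and 577 CPM in the members and 202, 217 and 285 CPM in the others, and 60.0% of its UMIs in the HGF scaffold members came from 1 barcode. Its level in these members thus rests largely on that barcode. Igfbp7 was at 441, 422 and 732 CPM in the members and 297, 260 and 418 CPM in the others, with ratios of 1.48, 1.62 and 1.75. The receptor gene Igf1r was at 881, 889 and 702 CPM in the members and 708, 866 and 819 CPM in the others. Summed over the 15 genes of the IGF list left without Igf2 and Igfbp2, the level in the members was 2.15, 1.42 and 1.52 times that in the others.

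Other named genes were of several kinds. The tight junction gene Cldn11, expressed in both arachnoid barrier cells and oligodendrocytes, had ratios of 2.34, 2.83 and 2.66 in the HGF scaffold, scaffold and untreated libraries. The small calcium-binding protein gene S100a6 had 2.98, 2.70 and 3.52, the complement protease gene C1r 4.49, 2.60 and 2.96, the proteoglycan gene Bgn 3.16, 2.39 and 3.56, and the collagen chaperone gene Serpinh1 2.32, 2.62 and 3.17. The lymphoid chemokine gene Ccl21 had 19, 10 and 62 member UMIs in the HGF scaffold, scaffold and untreated libraries. Of these, 100%, 70% and 69.4% lay in 1 barcode of each library. Itm2b, Itm2c, Ptms, Cst3, Laptm4a and Slc16a11 were also among the named genes, as were mt-Co2, mt-Co3, Rps21, Rps29 and Rpl36. The mitochondrial gene mt-Co3 stood at 1382, 856 and 1513 CPM in the members and 464, 406 and 364 CPM in the others. All 6 mitochondrial and all 27 ribosomal protein genes tested were higher in the members in all 3 libraries, where 28.6% of all genes tested were.

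**Figure D4:**
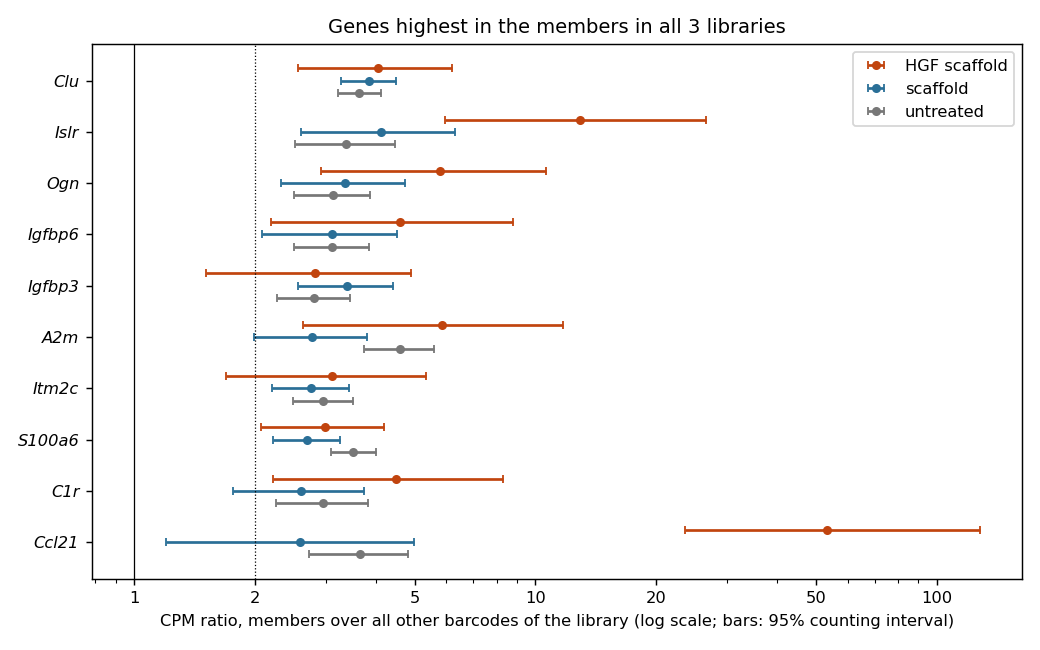
Ratio of summed CPM, members over all other barcodes of the same library (log scale), for the 10 named genes with the highest lowest ratio over the 3 libraries, rule genes left out, in the HGF scaffold (red), scaffold (blue) and untreated (grey) libraries. Bars are 95% counting intervals, the solid line is a ratio of 1 and the dotted line a ratio of 2. All points lie at or above 2, and the intervals of the HGF scaffold library, with 16 members, are the widest.

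Markers of meningeal layers were present but mixed with those of scar tissue. The arachnoid barrier list summed to 2483, 2622 and 3496 CPM in the members of the HGF scaffold, scaffold and untreated libraries, which was 1.71, 1.97 and 1.51 times the level in the others. Its most abundant members were Cldn11, the cadherin gene Cdh11, the transcription factor gene Foxp2 and the junction scaffold gene Tjp1. The barrier keratins Krt18 and Krt19 had 0 UMIs in all members, and the arachnoid barrier marker Dpp4 had 0, 3 and 13. The pial and perivascular fibroblast list was 2.06, 2.49 and 2.78 times the others' level, led by S100a6, Ogn, the matrix protein gene Aebp1 and the growth factor receptor gene Pdgfra. The pial laminin gene Lama1 had 0, 3 and 8 UMIs. The 4 meningeal transporter genes summed to 140, 315 and 369 CPM in the members and 325, 324 and 591 CPM in the others, which the exclusion rule limits.

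For the choroid plexus, the other main source of Ptgds and Igf2 in the nervous system, 3, 8 and 8 of 15 listed genes had a UMI in the members of the HGF scaffold, scaffold and untreated libraries. The gene Ttr, for its main product transthyretin, had 0 UMIs in the members of all 3 libraries, as had Kl and Otx2. The list summed to 1.62, 1.75 and 1.25 times the others' level, and Trpm3, a channel gene that meningeal fibroblasts also express, gave 185, 1294 and 2460 of its 197, 1412 and 2605 UMIs. Without Trpm3 the sums were 0.604, 0.937 and 0.854 times the others' level. Ependymal markers had 5, 9 and 13 UMIs in 1, 3 and 3 members, which was 5.01 (1.51 to 13.1), 2.03 (0.90 to 4.0) and 1.94 (1.0 to 3.45) times the others' level. Collagen and other matrix genes summed to 1.67, 1.67 and 2.04 times the others' level. By these markers the barcodes are fibroblast-rich and mixed, and they are called here by their genes and given no cell type name.

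The members were a smaller share of the HGF scaffold library than of the others. They made up 1.77% of its barcodes (exact 95% Clopper-Pearson interval 1.01 to 2.85), against 4.06% (3.27 to 4.98) in the scaffold library and 5.64% (4.72 to 6.67) in the untreated library. The ratio of shares was 0.435 (0.238 to 0.747) for HGF scaffold over scaffold, 0.720 (0.542 to 0.952) for scaffold over untreated and 0.313 (0.174 to 0.528) for HGF scaffold over untreated. These intervals, like all in this report, cover counting error only. The rule counts detected genes, and the HGF scaffold library had the lowest median depth. With every barcode thinned to 500 UMIs the shares were 0.221%, 1.20% and 1.82%, in the same order. The HGF scaffold share then rested on 2 barcodes, and scaffold over untreated was 0.659 (0.387 to 1.10), an interval that includes 1. Without the members that met any class rule the shares were 0.336%, 0.858% and 0.655%, and scaffold over untreated then turned to 1.31 (0.616 to 2.85). HGF scaffold, on 3 barcodes, was then 0.392 (0.0739 to 1.34) over scaffold and 0.513 (0.0946 to 1.84) over untreated. With at least 5 genes, HGF scaffold over scaffold was 0.368 (0.0934 to 1.06) and scaffold over untreated 0.614 (0.363 to 1.02). HGF scaffold over untreated was 0.226 (0.0590 to 0.621) in that setting. Among barcodes with at least 1000 UMIs, HGF scaffold over scaffold was 0.571 (0.259 to 1.13), and with at least 3 of the 6 genes scaffold over untreated was 0.921 (0.779 to 1.09), so both intervals include 1. Fewer such cells, less RNA in each and fewer adhering transcripts cannot be told apart.

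Between scaffold and untreated members, genes of myeloid cells and inflammation were higher with the scaffold. Of 5861 genes with 20 or more UMIs over the members of the pair of libraries, 438 (7.47%) were at least 2-fold higher and 445 (7.59%) at least 2-fold lower, with a median log2 ratio of 0.01. Of 19 inflammatory genes in the data, 9 reached 20 UMIs and were tested. All 9 were at least 2-fold higher, with a median log2 ratio of 3.43. The UMI limit passes genes through the library where they are high, so this count is fixed in part by it. The whole list summed to 1688 CPM in scaffold members and 232 CPM in untreated members. Its ratio was 7.28 (5.69 to 9.43), and 6.29 without the deepest member of each library. Il1b, the inflammatory cytokine interleukin-1 beta, had 39 UMIs in 21 scaffold members and 2 UMIs in 2 untreated members, a ratio of 26.2 (6.78 to 224). Nfkbia, the NF-kB inhibitor that NF-kB itself induces, had 102 and 14 UMIs in scaffold and untreated members, a ratio of 9.78. The neutrophil-attracting chemokine gene Cxcl2 had 28 UMIs in 10 scaffold members and 0 in untreated members. With the 0 set at a floor of 3 UMIs over the group it was 12.5-fold higher, with a lower limit of 9.54.

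The myeloid genes followed the same direction. In the myeloid marker list 9 of 10 tested genes were at least 2-fold higher in scaffold members, with a median log2 ratio of 1.45 and a summed ratio of 2.59 (2.33 to 2.87). The integrin gene Itgam stood at 307 CPM in scaffold members and 27.5 CPM in untreated members, a ratio of 11.2. The scavenger receptor gene Msr1 had a ratio of 14.8 and Aoah, for an enzyme that inactivates lipopolysaccharide, 8.86. Spp1, for the secreted phosphoprotein osteopontin, was at 922 CPM in scaffold members and 61.0 CPM in untreated members, a ratio of 15.1 (9.55 to 25.2). The transferrin receptor gene Tfrc had 11.1. The hexokinase gene Hk3 had 0 UMIs in untreated members and a ratio of 11.6 at the floor of 3 UMIs, with a lower limit of 8.81. Sema4a, Tiam1 and the neutrophil gene S100a9 each had 1 UMI in untreated members, with ratios of 33.6 (5.50 to 1378), 28.2 (4.54 to 1166) and 33.6 (5.50 to 1378).

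Differences in the same direction were found outside the members. In all other barcodes the inflammatory list was 13.1 times higher and the myeloid list 2.80 times higher in the scaffold than in the untreated library, Itgam 8.64 times and Spp1 6.82 times. Of the 438 higher genes, 401 (91.6%) were above 1 in the other barcodes too, where 58.2% of all tested genes were. The myeloid rule was met by 45.5% of scaffold members and 18.9% of untreated members, beside 52.6% and 24.6% of the other barcodes. With only the members that met fewer than 2 class rules, the inflammatory ratio was 6.80 (4.0 to 12.1) on 69 and 18 UMIs, and the myeloid ratio 2.69 (2.06 to 3.52). The part of myeloid RNA in these member differences was not tested further.

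Matrix and mural genes were lower in scaffold than in untreated members. In the fibrillar matrix list, 13 of 21 tested genes were at least 2-fold lower and none was 2-fold higher, with a median log2 ratio of -1.20. The list summed to 8129 CPM in scaffold members and 19343 CPM in untreated members, a ratio of 0.420 (0.399 to 0.442), beside 0.513 in the other barcodes. Col1a1, for a chain of the main scar collagen, was at 1479 CPM in scaffold members and 3539 CPM in untreated members, a ratio of 0.418 (0.370 to 0.471). Sparc, a collagen-binding protein gene, had a ratio of 0.301 and the elastin gene Eln 0.185. Fn1, for fibronectin, was lower in members with a ratio of 0.482 (0.407 to 0.568), and its ratio in the other barcodes was 1.11. The pial and perivascular fibroblast list had a summed ratio of 0.609 (0.546 to 0.679), beside 0.680 in the others, with 4 of 12 tested genes at least 2-fold lower. Of 10 mural genes, from pericytes and smooth muscle, 7 were tested. Each of the 7 was at least 2-fold lower, a count that the UMI limit fixes in part. The whole mural list had a summed ratio of 0.329 (0.251 to 0.427), beside 0.746 in the others. It rested on 72 scaffold and 294 untreated UMIs, and in members that met fewer than 2 class rules it was 0.572 (0.25 to 1.20) on 10 and 31 UMIs.

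The genes furthest below 1 were those of cartilage matrix, and a few untreated barcodes carried them. Col2a1, for the main collagen of cartilage, had 0 UMIs in scaffold members and 175 in untreated members, at least 43.4-fold lower, but the 175 UMIs lay in 4 barcodes and 67.4% of them in 1. Col9a1, Comp and Acan, for other cartilage matrix proteins, had 0 UMIs in scaffold members and 79, 77 and 61 in untreated members. C1qtnf3, Lect1, Hapln1 and Crispld1 were likewise at 0 in scaffold members, and Col11a1, Papss2, Zfp385b and H19 were at 17, 7, 5 and 1 UMIs against 283, 73, 117 and 49 in untreated members. For H19, an imprinted noncoding RNA next to Igf2, 89.8% of the untreated UMIs came from 1 barcode. Without the top barcodes of each gene, the intervals of Lect1, Hapln1 and H19 reached above 1. A set of 8 cartilage genes, chosen after their values were seen, had 1, 15 and 578 UMIs in HGF scaffold, scaffold and untreated members.

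Of those 578 UMIs, 69.6% were in 1 barcode and 92.2% in 3. That barcode held 7399 UMIs, 402 of them from the 8 genes and 12 from the 6 rule genes, and a mitochondrial share of 0.0541%. Only 4 members, all untreated, had 3 or more of the 8 genes. Without those 4, the fibrillar matrix ratio was 0.430 (0.408 to 0.452), so it did not rest on them. In the other barcodes 0, 2 and 13 of the HGF scaffold, scaffold and untreated libraries held 3 or more of the 8 genes.

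**Figure D5:**
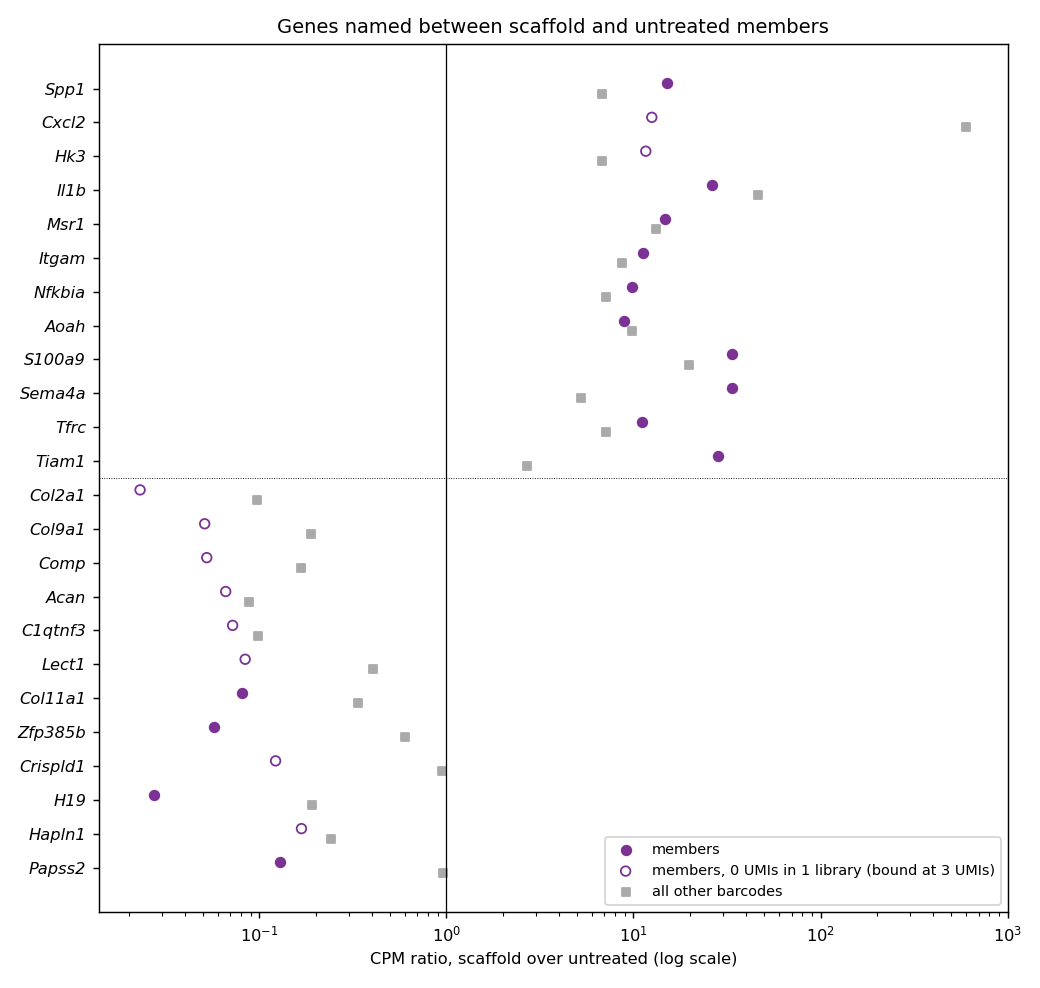
Ratio of summed CPM, scaffold over untreated (log scale), for the 12 genes named as higher (upper block) and the 12 named as lower (lower block), in members (purple) and in all other barcodes (grey squares). Open circles are bounds for genes with 0 UMIs in members of 1 library. The higher genes are above 1 in both sets, while several lower genes, such as Crispld1 and Papss2, lie near 1 in the other barcodes.

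Between HGF scaffold and scaffold members, the 16 HGF scaffold members limited what could be seen. Of 3736 genes tested, 220 (5.89%) were at least 2-fold higher and 539 (14.4%) at least 2-fold lower, with a median log2 ratio of -0.06. The deepest member held 30.2% of the HGF scaffold members' UMIs. The class I histocompatibility genes RT1-A1 and RT1-A2, near-identical copies whose counts could be split uncertainly, were at 681 and 481 CPM in HGF scaffold members and 152 and 107 CPM in scaffold members. Their ratios of 4.49 and 4.51 compared with 3.57 and 3.05 in the other barcodes, and LOC257642 likewise had 4.30 in members and 3.77 in the others. These genes were spread over 14, 13 and 7 of the 16 HGF scaffold members.

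Dcn, for the matrix proteoglycan decorin, was higher in the members and near 1 in the rest, and the difference between both ratios was not tested. It stood at 881 CPM in HGF scaffold members and 266 CPM in scaffold members, a ratio of 3.31 (2.20 to 4.93) and of 2.85 without the barcode with most Dcn UMIs in each library, while the other barcodes had 0.992 (0.848 to 1.16). Dcn was found in 11 of 16 HGF scaffold members and 36 of 88 scaffold members. Spp1 had a ratio of 2.63 (2.09 to 3.29), beside 1.20 in the others. Mgp had a ratio of 2.15 (1.65 to 2.78), while Igf2 had 0.385 (0.150 to 0.826), Nnat 0.444 (0.224 to 0.803), Igfbp2 0.510 (0.290 to 0.842), Ptgds 0.867 and Lbp 1.04. Without the exclusion genes, Igf2, Igfbp2 and Nnat turned to 1.17, 1.03 and 1.76, and with at least 5 rule genes Spp1 turned to 0.451. Since the rule selects on these 6 genes, their levels in members are set in part by it. The fibrillar matrix list had a summed ratio of 1.55 (1.42 to 1.70) in members and 1.56 in the others, with 2 of 20 genes at least 2-fold higher and none 2-fold lower. The list of phagocytic and lipid-handling genes had 1.53 (1.40 to 1.67), and 3.31 (2.88 to 3.79) in members that met fewer than 2 class rules, on 309 and 710 UMIs.

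The other named genes of this comparison were often carried by 1 barcode. Igfbp5 had a ratio of 3.64 and of 1.66 (1.09 to 2.46) without its top barcodes. The ephrin gene Efna5 had 14.3, with 69.6% of its 79 HGF scaffold UMIs in 1 barcode, and 5.62 without it. Ncan, for the proteoglycan neurocan, and Ccl21 had all of their 25 and 19 HGF scaffold UMIs in 1 barcode each. Scara5, for a ferritin receptor, S100a4, for a calcium-binding protein, and Aatf, for a transcriptional regulator, had ratios of 5.19, 4.89 and 4.54 on 17, 18 and 13 HGF scaffold UMIs. Of the Scara5 UMIs, 76.5% came from 1 barcode, and without the top barcodes its ratio was 2.28 (0.536 to 7.52). Among the genes named as lower, Adarb2, for a brain RNA-editing family protein, had 8 UMIs in HGF scaffold members and 225 in scaffold members, a ratio of 0.174 (0.0741 to 0.348), and the adhesion receptor gene Adgrb3 0.212. Map7, Bin1, Slain1 and Phldb1 had 4, 2, 2 and 1 HGF scaffold UMIs. Il1b, Ctgf, Rspo2, Unc5d, Pik3r3 and Ninj2 had 0 UMIs in HGF scaffold members and between 39 and 49 in scaffold members. At the floor of 3 UMIs they were 2.66-fold to 3.34-fold lower, and the upper limits of their ratios were 0.382 to 0.485. For Unc5d, 69.4% of the 49 scaffold UMIs were in 1 barcode, and without it the counts set no bound below 1.

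The HGF scaffold and scaffold members share the untreated members as their comparison, so their values are given side by side. For HGF scaffold over untreated, 457 of 4485 tested genes (10.2%) were at least 2-fold higher and 762 (17%) at least 2-fold lower, with a median log2 ratio of -0.09. The myeloid list had a summed ratio of 2.86 (2.45 to 3.32) for HGF scaffold and 2.59 for scaffold over untreated, and the inflammatory list 6.05 (4.31 to 8.48) and 7.28. Spp1 had 39.7 and 15.1, Itgam 13.9 and 11.2, Msr1 22.3 and 14.8, and the lysozyme gene Lyz2 8.53 and 3.89. The fibrillar matrix list had 0.653 (0.601 to 0.709) and 0.420. In HGF scaffold members, 1 barcode held 47.8% of the myeloid list's UMIs. For Itgam and Msr1, 57.9% and 52.9% of their UMIs in HGF scaffold members lay in 1 barcode each. Without the deepest members the myeloid ratio for HGF scaffold over untreated was 2.24 (1.83 to 2.73). In members that met fewer than 2 class rules it was 1.42 (0.659 to 2.73), on 10 and 95 UMIs. In the other barcodes the HGF scaffold over untreated ratios were 3.09 for the myeloid, 12.4 for the inflammatory and 0.801 for the fibrillar matrix list. For HGF scaffold over untreated, only 3 inflammatory genes reached 20 UMIs, and 2 of them were at least 2-fold higher.

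Of the remaining genes named as higher for HGF scaffold over untreated, Efna5 and Ncan had 11.3 and 10.3 in members. In the other barcodes both were lower, at 0.585 and 0.294, while the rest were higher there too. The integrin gene Itgal had a ratio of 21.0, the oxidase subunit gene Ncf1 9.85, the inhibitory receptor gene Lilrb4 11.8 and the macrophage receptor gene Adgre1 9.85, with 87.5% of its 24 HGF scaffold UMIs in 1 barcode. The nucleoside transporter gene Slc28a2 had 19.7, with 83.3% of 18 UMIs in 1 barcode, and the receptor kinase gene Adrbk2 14.8. In the other barcodes Itgal had 9.31, Ncf1 9.39, Lilrb4 11.6, Adgre1 7.96, Slc28a2 13.1 and Adrbk2 4.69. Named as lower were the endothelial receptor gene Adgrl4, with 1 UMI in HGF scaffold members and 156 in untreated members, the phosphodiesterase gene Pde3a, with 2 and 183, and the adhesion gene Opcml, with 1 and 134. In untreated members 1 barcode held 35.3%, 39.9% and 47.0% of the Adgrl4, Pde3a and Opcml UMIs. Col2a1, Col9a1, Comp, Col11a2, Zfp385b, Pik3r3 and Ctgf had 0 UMIs in HGF scaffold members, and Map7 and Adarb2 had ratios of 0.129 and 0.188. For Comp and Col11a2, 76.6% and 71.8% of the untreated UMIs lay in 1 barcode. Without the top barcodes their upper limits were 1.64 and 1.20, while those of the other genes at 0 UMIs stayed below 1.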

How the data were processed

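The labels' protocols describe nuclei isolation with a kit, droplet capture on 10x 3′ gel beads, and library sequencing. Each deposited matrix holds raw UMI counts per gene and barcode. The submitters' processing notes name Cell Ranger 6.0.1, and the genome build was not given in the sources used here. Current names were looked up in RefSeq.

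The members' counts were summed per library and scaled to CPM. Ratios carry exact conditional binomial 95% intervals, and shares exact Clopper-Pearson intervals. A gene was called higher or lower from 2-fold, given 20 or more UMIs over both libraries, and 0 UMIs were set at a floor of 3 over the group. With 1 library per group no test was run. Named genes were the rule genes, the 25 genes with the highest lowest ratio of members over others (10 or more UMIs in each library), the 12 higher and 12 lower genes per comparison whose interval bound nearest to 1 was farthest from it, and up to 4 of the most abundant genes per list, of which 1 is not reported here. Other list genes, such as Eln and markers at 0 UMIs, were chosen after their values were seen. The members and lists were chosen with earlier results of these data known. The intervals were checked on counts simulated with counting error alone. That check cannot show how they hold where the UMIs of a gene are clumped in 1 barcode. Python 3.11.15, numpy 2.4.6, scipy 1.17.1, pandas 2.3.3 and scanpy 1.11.5 were used.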

Additional observations from a re-analysis of the deposited data

Results flagged for a closer look

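The 12 higher and 12 lower genes named per comparison were screened for opposite directions in members and all other barcodes. In 3 of these genes the ratios were opposite and both intervals left out 1. With 1 library per group this opposition was not tested. Genes outside the screen could differ in direction too. For HGF scaffold over scaffold, 154 of 220 higher and 308 of 539 lower genes kept their direction in the other barcodes. Ncan had a CPM ratio of 30.6 for HGF scaffold over scaffold in members and 0.293 in all other barcodes, and 10.3 and 0.294 for HGF scaffold over untreated, with all of its HGF scaffold member UMIs in 1 barcode of 4955 UMIs that met 4 class rules. Ccl21 had 9.29 in members and 0.450 in all other barcodes for HGF scaffold over scaffold, with all of its member UMIs in 1 barcode of 2717 UMIs, which also held 51 of the 85 Igfbp5 UMIs. Efna5 had 11.3 in members and 0.585 in all other barcodes for HGF scaffold over untreated, with 55 of 79 UMIs in 1 barcode of 5577 UMIs.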

How the results depend on the processing

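The shares of members in the HGF scaffold, scaffold and untreated libraries depended on the rule. They were 5.30%, 12.6% and 13.7% with at least 3 of the 6 genes, 0.442%, 1.20% and 1.95% with at least 5, 0.336%, 0.858% and 0.655% without members that met a class rule, 0.221%, 1.20% and 1.82% at 500 UMIs, 0.421%, 1.48% and 3.21% at 1000 UMIs, and 0.662%, 2.12% and 3.64% with at least 3 of Igf2, Igfbp2, Nnat and Lbp. Without exclusion genes the scaffold and untreated shares were 7.93% and 10.5%. The share ratio moved to 0.184 (HGF scaffold over scaffold) and 0.121 (HGF scaffold over untreated) at 500 UMIs, and to 0.460 (scaffold over untreated) and 0.131 (HGF scaffold over untreated) at 1000 UMIs, and scaffold over untreated turned to 1.31 without members that met a class rule. Thinning to 1000 UMIs left out 6, 33 and 39 members.

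Counts of genes past 2-fold were 759, 883 and 1219 for HGF scaffold over scaffold, scaffold over untreated and HGF scaffold over untreated. They were 25, 38 and 12 without members that met a class rule, 206, 305 and 480 with at least 50 UMIs, and 2547, 2707 and 3050 with no minimum, where 63.4%, 50.7% and 68.0% were higher against 29.0%, 49.6% and 37.5%. The HGF scaffold counts over scaffold and over untreated were 500 and 616 with at least 5 genes, 1557 and 1945 without exclusion genes, and 306 and 566 where the interval had to leave out 1. With equal weight per barcode HGF scaffold over scaffold gave 1345. Leaving out Scrublet calls or barcodes above 5% mitochondrial UMIs, scaling to the median gene and leaving out the deepest members kept these counts within 1.5 times. The genes behind the counts changed more without the deepest members. For HGF scaffold over scaffold, 132 of 220 higher and 323 of 539 lower genes were kept. For scaffold over untreated, 375 of 438 and 396 of 445 were kept, and for HGF scaffold over untreated 301 of 457 and 493 of 762.

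Single values turned direction in these settings. With at least 5 genes Spp1 was at 0.451 (HGF scaffold over scaffold) and Mgp at 0.564 (HGF scaffold over untreated). Without exclusion genes Igf2, Igfbp2 and Nnat were at 1.17, 1.03 and 1.76 (HGF scaffold over scaffold) and Ptgds and Nnat at 1.17 and 1.26 (HGF scaffold over untreated). Without the deepest members Ptgds was at 1.13 (HGF scaffold over untreated). For scaffold over untreated, Igfbp2, Mgp and Lbp were at 1.57, 1.73 and 1.42 without members that met a class rule, and Igfbp2 and Lbp at 1.04 and 1.06 in members that met fewer than 2. In those members the mural list was at 1.74 (HGF scaffold over untreated) and the endothelial list at 1.90 (over scaffold) and 1.62 (over untreated). In untreated members that met no class rule the median log2 ratio over other barcodes was 0.63 for the meningeal transporters and -0.27 for scar fibroblasts, where the choice of members without the scar fibroblast rule fixes the direction. For the other values the cause was not tested.

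No paired analysis was possible because there is 1 library per group. The settings with Igf2, Igfbp2, Nnat and Lbp alone, without the deepest member or a gene's top barcode, with fewer than 2 class rules, without the 4 barcodes rich in cartilage genes and with the interval rule were chosen after seeing the data. Depth limits the HGF scaffold values most, with 16 members and 49933 UMIs.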
